A study of Mus musculus with 2 samples.

Results

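Transforming growth factor beta (TGF-beta) signaling was examined through 9 genes, the ligands Tgfb1, Tgfb2 and Tgfb3, the activin subunit Inhba, the receptors Tgfbr1 and Tgfbr2, and Tgfbi, Thbs1 and Smad7, out of 32285 genes counted. The genes were chosen by name and described in 5 cell classes that were gated by marker genes. The data came from scRNA-seq of RM-1 tumors of a pair of mice, 1 given vehicle (control) and 1 given enzalutamide (ENZ), each sequenced as 1 library. RM-1 is a mouse prostate cancer (PCa) line, placed in the prostate of C57BL/6 mice and used by the study as a natural model of ENZ resistance (ENZR), and ENZ is a drug given for PCa. Both samples carried the genotype label WT, and vehicle or ENZ was the difference named in the labels, while the dose, the time and the age of the mice were not given in the labels. Immune cells were enriched during sorting, so the number of cells in a class is not its share in the tumor.

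TGF-beta ligands are secreted in a latent form and are set free by integrins, proteases and thrombospondin-1. The active ligand binds the type II receptor, which recruits and phosphorylates the type I receptor, and Smad2 and Smad3 then carry the signal to the nucleus. The pathway is known for restraining T cells, for driving matrix production by fibroblasts and for a role in tumor growth that changes with stage.

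Barcodes with at least 1000 unique molecular identifiers (UMIs) and at most 20% mitochondrial UMIs numbered 12253 (control) and 10271 (ENZ), with medians of 6376 and 8127 UMIs. Between them the libraries shared 39 barcodes, 0.318% of the control and 0.380% of the ENZ barcodes. The classes held 2673 control and 3369 ENZ cancer cells, 63 and 72 fibroblasts, 1495 and 717 macrophages, 890 and 1164 monocytes, and 521 and 732 T cells. Because a gate cuts a continuous range, 17.0% of control and 12.2% of ENZ cancer cells lay within 1.5 times of the minimum, against at most 5.06% in any other class. No class name was given to 3965 control and 2898 ENZ barcodes, and 940 and 596 passed several gates.

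The keratins Krt8, Krt18 and Krt19 defined the cancer cells and summed with the other markers of the list to 1239 and 1240 CPM, that is, UMIs per 1000000 UMIs of the class. Epcam was at 4.09 CPM (control) and 3.49 CPM (ENZ), Cdh1 at 0.94 and 0.81 CPM, and Cldn4, Cldn7 and Krt7 at 0.11 CPM or below. Of the prostate genes, Pbsn and Hoxb13 had 0 UMIs in the cancer cells of both libraries, while Fkbp5, a gene induced by steroid hormones in many cell types, was at 145 CPM (control) and 187 CPM (ENZ). The collagen gene Col3a1 was at 304 and 333 CPM in cancer cells, against 13385 and 14977 CPM in fibroblasts. The other 4 classes had 8 of 8, 8 of 8, 6 of 6 and 8 of 8 of their markers detected in both libraries.

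With 1 library from 1 mouse per condition no test of ENZ was possible and no p-value is given. The 95% intervals, exact Poisson for a level, exact conditional binomial for a ratio and exact binomial for a share, cover counting error only, and mouse, treatment and library cannot be told apart. A gene was counted as higher or lower when its ENZ to control ratio of CPM was at least 1.5 or at most 1/1.5, among genes that reached 10 CPM in the control, the ENZ library or both. Levels were ordered across classes within a gene and not between genes, since CPM is not scaled to gene length.

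Promoter sequences of 3 genes are shown, since Tgfbr1 and Inhba were the members above 1.5-fold in monocytes and Tgfb2 was near 0 in 4 of the 5 classes. Each is the 250 bases before the RefSeq start on GRCm38.p6, 5′ to 3′ on the strand of the gene, with matches to any searched motif in capitals.
Tgfbr1: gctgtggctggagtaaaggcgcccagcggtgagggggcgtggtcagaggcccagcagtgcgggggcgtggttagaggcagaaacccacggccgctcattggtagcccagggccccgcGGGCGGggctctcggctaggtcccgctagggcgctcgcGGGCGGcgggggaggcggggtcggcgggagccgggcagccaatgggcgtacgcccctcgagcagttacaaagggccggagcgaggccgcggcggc
Inhba: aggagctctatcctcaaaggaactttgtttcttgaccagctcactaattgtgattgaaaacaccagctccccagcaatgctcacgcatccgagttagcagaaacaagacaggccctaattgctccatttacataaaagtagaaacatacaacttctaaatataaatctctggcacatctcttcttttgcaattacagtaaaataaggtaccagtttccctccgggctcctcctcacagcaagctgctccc
Tgfb2: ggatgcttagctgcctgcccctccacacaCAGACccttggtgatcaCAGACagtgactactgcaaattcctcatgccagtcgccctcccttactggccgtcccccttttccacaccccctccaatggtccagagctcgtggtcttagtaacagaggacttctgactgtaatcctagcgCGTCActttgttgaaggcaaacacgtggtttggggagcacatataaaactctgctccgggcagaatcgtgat
The Tgfbr1 window lies at chr4:47352972-47353221 on the plus strand, the Inhba window at chr13:16011601-16011850 on the plus strand and the Tgfb2 window at chr1:186705990-186706239 on the minus strand. The motifs, searched on both strands, were CAGAC (the Smad-binding core), TGACGTCA (the cAMP response element), TGACG (which lies inside the full element), the AP-1 site TGANTCA, and GGGCGG (the Sp1 box). Among 32851 promoters of this length they were found in 42.2%, 1.55%, 17.8%, 6.75% and 32.7%, respectively. The Tgfbr1 window shown held GGGCGG at 2 places and none of the other letters, while a second Tgfbr1 promoter of the table, at chr4:47385966-47386215, held CAGAC at 1 place and no GGGCGG. Tgfb2 held CAGAC at 2 places and TGACG at 1, and Inhba held none of the 5. The RefSeq table gave a promoter for 6 of the 9 genes, and Tgfb3, Thbs1 and Smad7 were not matched.

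Tgfb1, the main TGF-beta ligand of immune cells, was found in every class. It stood at 316 CPM in control and 324 CPM in ENZ monocytes, at 285 and 254 CPM in macrophages, at 171 and 214 CPM in T cells, at 160 and 169 CPM in cancer cells and at 72.7 and 81.8 CPM in fibroblasts. Monocytes were highest and fibroblasts lowest in both libraries, and control T cells and cancer cells did not differ beyond counting error (ratio 1.07, 0.968 to 1.17). The ENZ to control ratio was 1.25 (1.11 to 1.41) in T cells, 1.06 (1.03 to 1.08) in cancer cells and 0.891 (0.834 to 0.95) in macrophages, while the interval covered 1 in monocytes (1.02, 0.954 to 1.10) and fibroblasts (1.12, 0.835 to 1.52). None of these reached 1.5-fold, and the sign in monocytes and in fibroblasts changed under other settings.

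Tgfb2, a ligand that mesenchymal cells make, was at 194 CPM in control and 295 CPM in ENZ fibroblasts. In the other 4 classes it lay at 1.11 to 5.43 CPM, so fibroblasts were 47.8 and 54.2 times the next class, cancer cells, in the control and ENZ library. The ENZ to control ratio in fibroblasts was 1.52 (1.28 to 1.8), or 0.60 on the log2 scale. It did not reach 1.5-fold when the highest scrublet scores were removed (0.57). Nor did it with an alternative monocyte gate that held Plac8 and Vcan (0.41), which left few fibroblasts. In the control 47.4% of its UMIs came from 5 cells, and under ENZ 34.4%.

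Tgfb3, the third ligand, was also highest in fibroblasts, at 71.1 CPM (control) and 57.3 CPM (ENZ). Macrophages had 11.3 CPM (control) and 21.6 CPM (ENZ), from 133 and 108 UMIs, a ratio of 1.91 (1.47 to 2.48). Cancer cells were at 13.5 and 15.1 CPM, T cells at 8.01 and 12 CPM and monocytes at 3.33 and 5.05 CPM. Tgfb3 was counted as higher in macrophages, at a level close to the minimum of 10 CPM. The ratio was 1.496 (0.866 to 2.66) in T cells, just under 1.5, and 1.05 on the log2 scale when CPM was averaged over cells (per-cell means), and it was 1.52 (0.791 to 3.03) in monocytes, which stayed under 10 CPM. The difference between these classes was not tested. In macrophages the 8 cancer cell markers, of which 6 were detected in both libraries and Cldn4 and Cldn7 were at 0, summed to 51.1 and 84.5 CPM, with Krt8 most abundant, and 3 of 4 tested were higher. Their part in the Tgfb3 value was not tested. In NK cells, outside these classes, Tgfb3 had 5 UMIs (control) and 14 UMIs (ENZ), a ratio of 4.85 (1.65 to 17.2).

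Inhba encodes the subunit that pairs to form activin A, a ligand of the same family with its own receptors. Monocytes had 50.9 CPM (229 UMIs, control) and 131 CPM (778 UMIs, ENZ), a ratio of 2.58 (2.22 to 3.0), the highest ratio of any member tested in the 5 classes. Fibroblasts had 95.3 and 76.1 CPM and macrophages 59.2 and 70.3 CPM, with ratios of 0.798 (0.600 to 1.06) and 1.19 (1.04 to 1.35). Cancer cells and T cells had at most 7.13 CPM. The highest class was fibroblasts in the control and monocytes in the ENZ library. In fibroblasts 57.0% of the 114 control UMIs came from 5 of the 63 cells, and under ENZ 71.0% of 93 UMIs came from 5 cells and 34.4% from 1.

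**Figure D1:**
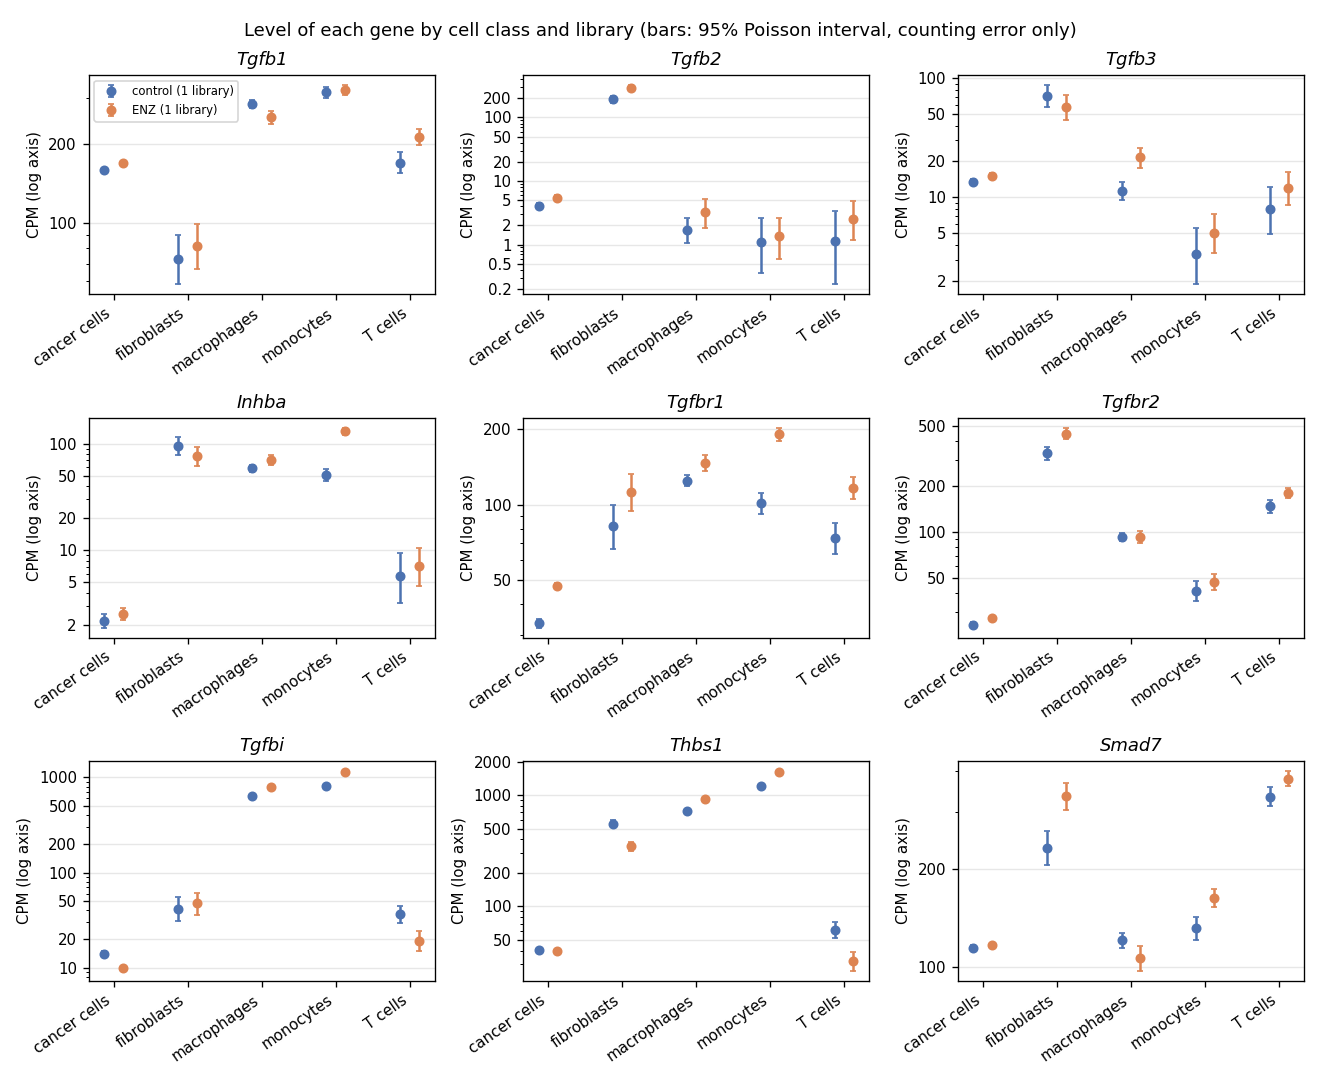
Level of each of the 9 genes in CPM (log axis) in 5 cell classes, in the control library (blue) and the ENZ library (orange), with bars for the 95% Poisson interval of counting error. Tgfb2 stands at 194 and 295 CPM in fibroblasts and at 5.43 CPM or less elsewhere, and Inhba in monocytes goes from 50.9 CPM in the control to 131 CPM in the ENZ library.

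Tgfbr1, the type I receptor kinase, had an ENZ to control ratio with an interval above 1 in 5 of 5 classes. It stood at 101 CPM in control and 191 CPM in ENZ monocytes (455 and 1133 UMIs), a ratio of 1.89 (1.69 to 2.11). In T cells it was at 73.2 and 116 CPM, a ratio of 1.59 (1.34 to 1.90). The Tgfbr1 ratio was 1.41 (1.34 to 1.48) in cancer cells, from 33.5 to 47.2 CPM. It was 1.37 (1.05 to 1.79) in fibroblasts, from 81.9 to 112 CPM, and 1.18 (1.08 to 1.29) in macrophages, from 124 to 147 CPM. Intervals that left out 1 were common among the members at these depths. They lay above 1 for 5 and below 1 for 2 of 8 members tested in macrophages, and for 4 and 1 of 7 in cancer cells. The share of all genes with such intervals is not given here. Over the 7681 genes used for median-of-ratios scaling in macrophages the median ratio was 1.11, and with classes taken from Leiden clusters the Tgfbr1 ratio there was -0.02 on the log2 scale. Cancer cells had the lowest level in both libraries, and the highest class was macrophages in the control and monocytes in the ENZ library.

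Tgfbr2, the type II receptor that binds the ligand first, had the same order of classes in both libraries. Fibroblasts were highest at 331 CPM (control) and 444 CPM (ENZ), followed by T cells at 149 and 181 CPM, macrophages at 93.2 and 93.9 CPM, monocytes at 41.5 and 47.3 CPM and cancer cells at 24.9 and 27.3 CPM. Each class differed from the next beyond counting error. The ENZ to control ratio was 1.34 (1.18 to 1.53) in fibroblasts, 1.22 (1.07 to 1.39) in T cells and 1.10 (1.04 to 1.16) in cancer cells, and its interval covered 1 in monocytes (1.14, 0.943 to 1.38) and macrophages (1.01, 0.903 to 1.12). Both receptor genes were lowest in cancer cells, while monocytes were next to lowest for Tgfbr2 and highest or next to highest for Tgfbr1.

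Tgfbi encodes a secreted matrix protein induced by TGF-beta. It was highest in monocytes, at 820 CPM (control) and 1133 CPM (ENZ), and next in macrophages, at 629 and 799 CPM, with ratios of 1.38 (1.33 to 1.44) and 1.27 (1.22 to 1.32). Fibroblasts had 41.8 and 47.4 CPM, or 0.18 on the log2 scale, which was 0.88 in the few fibroblasts left by the Plac8 and Vcan gate. Cancer cells had 14.0 and 9.90 CPM, a ratio of 0.707 (0.648 to 0.771), and T cells 36.2 and 19.1 CPM, a ratio of 0.527 (0.380 to 0.729). The T cell value rested on 95 and 67 UMIs, of which 43.2% and 44.8% came from 5 cells, and it changed sign, to 0.28 on the log2 scale, with classes from Leiden clusters.

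Thbs1 encodes thrombospondin-1, which activates latent TGF-beta. Monocytes had 1222 CPM (control) and 1615 CPM (ENZ), and macrophages 718 and 922 CPM, with ratios of 1.32 (1.28 to 1.37) and 1.28 (1.24 to 1.33). Fibroblasts had 554 and 347 CPM, a ratio of 0.626 (0.553 to 0.708), and in the control 22.9% of the 663 UMIs came from 1 of the 63 cells. T cells had 61.4 and 31.9 CPM, a ratio of 0.520 (0.405 to 0.666). Of their 161 control and 112 ENZ UMIs, 32.9% and 42.0% came from 5 cells, and under ENZ 20.5% from 1. Cancer cells had 40.5 and 39.9 CPM (0.985, 0.940 to 1.03). The ratio was thus above 1 in monocytes and macrophages and below 1 in fibroblasts and T cells, while neutrophils, a further myeloid class, had a ratio of 0.553 (0.499 to 0.612). On the log2 scale the fibroblast value of -0.68 did not reach 1.5-fold with a stricter gate (-0.35) or with Leiden classes (-0.22), and it was 0.76 under a gate that left 17 control and 13 ENZ fibroblasts.

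The genes that myeloid cells express at high level were also seen in droplets of free RNA, those with 10 to 100 UMIs, where Thbs1 stood at 226 CPM (control) and 202 CPM (ENZ) and Tgfbi at 163 and 175 CPM. In T cells the 8 macrophage markers summed to 235 CPM (control) and 130 CPM (ENZ), with Apoe most abundant and all 8 detected in both, and C1qb stood at 24.8 and 7.13 CPM. The 6 monocyte markers summed to 549 and 458 CPM in T cells, with Plac8 most abundant, and the 6 NK markers to 434 and 161 CPM, with Gzma most abundant. In cancer cells the macrophage markers summed to 73.7 and 41.7 CPM, all 8 detected in both and Apoe most abundant, while the 6 monocyte markers, led by Vcan, went the other way, from 66.8 to 77.9 CPM. These sums in T cells and the macrophage sum in cancer cells had ENZ to control ratios below 1. So had Tgfbi and Thbs1 in T cells and Tgfbi in cancer cells, the last within 1.5-fold (0.707). With free RNA subtracted, Tgfbi in T cells was at -1.05 on the log2 scale. The part of macrophage, monocyte and neutrophil RNA in these values was not tested.

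Smad7 encodes the inhibitory Smad that TGF-beta induces and that targets the type I receptor. T cells were highest, at 334 CPM (control) and 379 CPM (ENZ), and fibroblasts followed at 232 and 335 CPM. Monocytes had 132 and 163 CPM, macrophages 121 and 106 CPM and cancer cells 115 and 117 CPM. In the control, macrophages did not differ beyond counting error from monocytes (ratio 1.09, 0.991 to 1.20) or cancer cells (1.05, 0.997 to 1.12). The ENZ to control ratio was 1.44 (1.23 to 1.68) in fibroblasts, and -0.46 on the log2 scale in the few fibroblasts left by the Plac8 and Vcan gate. It was 1.24 (1.11 to 1.37) in monocytes, 1.13 (1.04 to 1.24) in T cells and 0.880 (0.795 to 0.973) in macrophages. Its interval covered 1 in cancer cells (1.02, 0.992 to 1.05), where the sign changed with median-of-ratios scaling.

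The members were then set beside all genes of the class. In cancer cells 0 of 7 members tested were higher and 0 lower, where 0.484% of all genes tested were higher and 0.968% lower. In fibroblasts 1 of 9 was higher (Tgfb2) and 1 lower (Thbs1), against 11.1% and 14.6% of all genes. In macrophages 1 of 8 was higher (Tgfb3) and 0 lower, against 10.5% and 3.82%. In monocytes 2 of 7 were higher (Tgfbr1 and Inhba) and 0 lower, against 8.37% and 5.37%. In T cells 1 of 7 was higher (Tgfbr1) and 2 lower (Tgfbi and Thbs1), against 9.7% and 8.61%. The shares in fibroblasts and macrophages were near those of all genes. In T cells and monocytes, with 7 members tested each, the members called were 1 and 2 genes in a direction.

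The median log2 ratio of the members tested was 0.08 in cancer cells, 0.18 in fibroblasts, 0.24 in macrophages, 0.40 in monocytes and 0.29 in T cells, and that of all genes tested 0.07, -0.04, 0.17, 0.06 and 0.07. Only in macrophages did scaling by the median of ratios shift values by more than 0.1, by 0.15, and with this scaling Tgfbr2 in macrophages was at -0.14 on the log2 scale, against 0.01 without it.

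**Figure D2:**
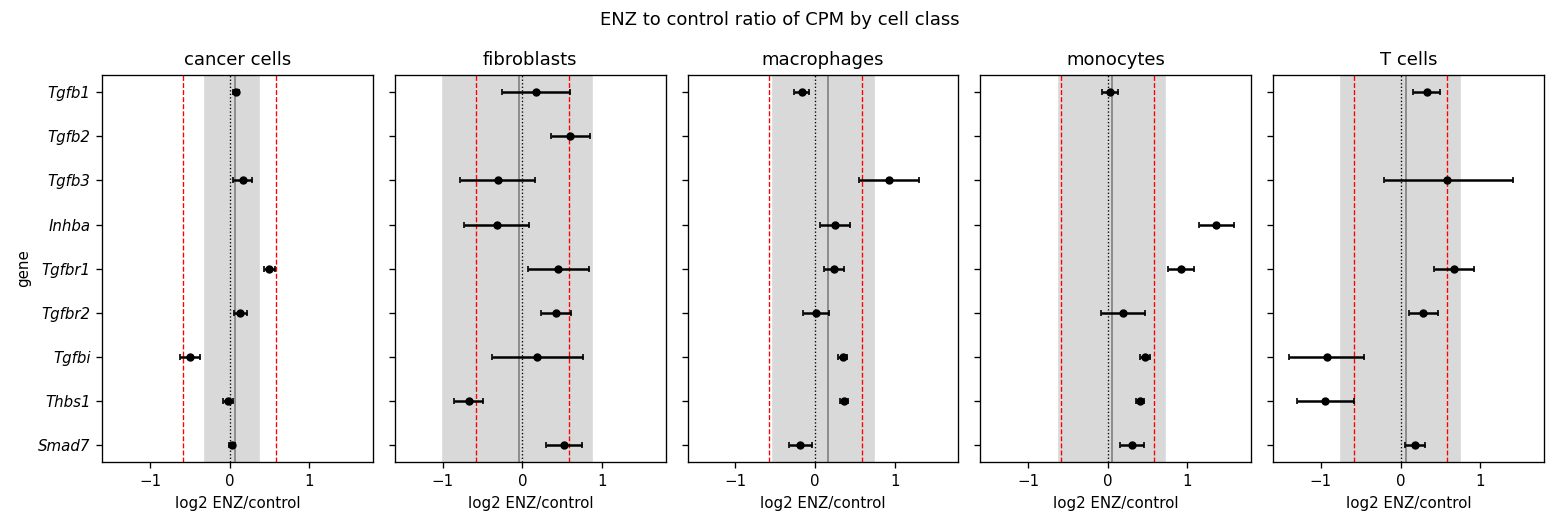
Log2 ENZ to control ratio of CPM for the members that reached 10 CPM, by cell class, with bars for the 95% interval of counting error. The gray band spans the 5th to 95th percentile of all genes tested, the gray line is their median, the dashed lines mark 1.5-fold and the dotted line equality. In monocytes Inhba (1.36) and Tgfbr1 (0.92) lie beyond the band, and in cancer cells Tgfbr1 (0.50) and Tgfbi (-0.50) do so within 1.5-fold.

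The 5th to 95th percentile of all genes ran from -0.31 to 0.37 in cancer cells, the narrowest range of the 5 classes, and from -1.0 to 0.88 in fibroblasts, the widest. Tgfbr1 in cancer cells was at 0.50 and Tgfbi at -0.50, both outside the range of their class, but Tgfbr1 was at 0.33 with Leiden classes and Tgfbi at -0.31 with Leiden classes and -0.23 with per-cell means, values at the limit of this range or inside it. In monocytes the range was -0.61 to 0.72, with Tgfbr1 at 0.92 and Inhba at 1.36. Tgfb2 and Thbs1 in fibroblasts, at 0.60 and -0.68, lay inside. In macrophages the range was -0.52 to 0.74, with Tgfb3 above it at 0.93 (0.64, inside it, with Leiden classes), and in T cells it was -0.74 to 0.75, with Tgfbi at -0.92 and Thbs1 at -0.94 below it.

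The share of cells with a UMI was compared after each cell had been thinned to 1000 UMIs. Tgfbr1 was found in 8.09% (6.38 to 10.1) of control and 15.5% (13.4 to 17.7) of ENZ monocytes, and without thinning in 27.4% and 46.4%. Inhba was found in 4.16% (2.94 to 5.68) and 7.47% (6.03 to 9.14) of monocytes, and without thinning in 10.7% and 20.5%. T cells, which carry little Inhba, had 0.384% and 0.273% after thinning. A UMI of each gene was thus found in a larger share of ENZ than of control monocytes. Free RNA held Tgfbr1 at 46.7 CPM (control) and 50.4 CPM (ENZ) and Inhba at 18.1 and 18.4 CPM. Its part in the shares was not tested. For Thbs1 in macrophages the share went from 42.3% to 39.9% (73.8% and 66.2% without thinning) while the CPM ratio was 1.28. For Tgfbi in cancer cells it went from 1.20% to 1.37%, and without thinning from 25.3% to 20.2%, while the CPM ratio was 0.707. No order was read from these shares.

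**Figure D3:**
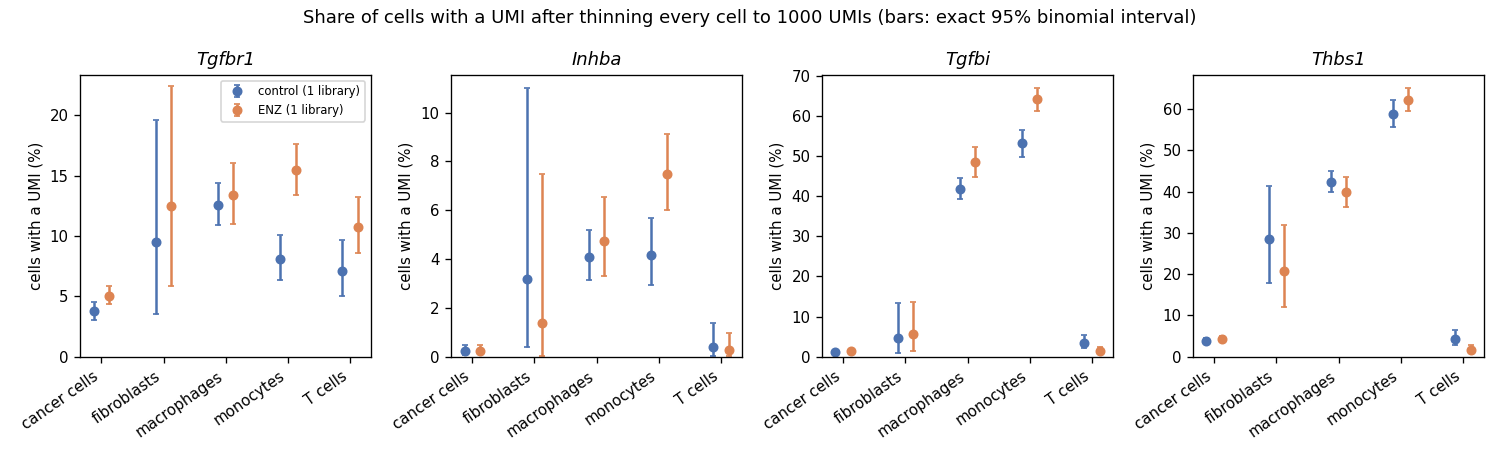
Share of cells (%) with a UMI of Tgfbr1, Inhba, Tgfbi and Thbs1 after every cell was thinned to 1000 UMIs, by cell class in the control (blue) and ENZ (orange) library, with bars for the exact 95% binomial interval. The monocyte shares of Tgfbr1 (8.09% and 15.5%) and Inhba (4.16% and 7.47%) have intervals that do not overlap between the libraries. Those of Tgfbi in monocytes (53.1% and 64.2%) do not overlap either, while those of Thbs1 (58.9% and 62.3%) do. These intervals cover counting error only and leave out differences between mice. How many of all genes have intervals apart in this way was not tested, so no effect of ENZ is read from them.

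Among 53 further genes of the pathway, 33 were tested in cancer cells with 0 higher and 0 lower, 49 in fibroblasts with 6 higher and 9 lower, 31 in macrophages with 8 higher and 0 lower, 31 in monocytes with 6 higher and 2 lower, and 29 in T cells with 5 higher and 3 lower. Over all genes tested the shares higher and lower were 0.484% and 0.968%, 11.1% and 14.6%, 10.5% and 3.82%, 8.37% and 5.37%, and 9.7% and 8.61%, in the same order, and in fibroblasts the counts were near these shares. With median-of-ratios scaling the macrophage count was 3 higher (Tgfbr3, Fn1 and Acvr1b) and 1 lower (Tgif1), in place of 8 and 0. The others were 0 and 0 in cancer cells, 8 and 9 in fibroblasts, 5 and 2 in monocytes and 4 and 4 in T cells. The shares of all genes above are without this scaling, so these counts cannot be set beside them. The median log2 ratios of the pathway genes were 0.13, 0.04, 0.35, 0.30 and 0.17. In macrophages the genes above 1.5-fold included the co-receptor gene Tgfbr3 (8.18 to 14.8 CPM) and the fibronectin gene Fn1 (378 to 684 CPM). In monocytes they included Fn1 (453 to 813 CPM), Bhlhe40 (116 to 203 CPM), the inhibitory Smad gene Smad6 and, without that scaling, the integrin gene Itgav (207 to 317 CPM). The 2 lower genes in monocytes were Tgfbr3 (11.3 to 6.90 CPM) and Id3 (119.5 to 72.6 CPM). Tgfbr3 reached 10 CPM in macrophages only in the ENZ library and in monocytes only in the control. Its ratios were 1.81 (1.32 to 2.48) in macrophages and 0.609 (0.394 to 0.938) in monocytes. Both calls rest on levels close to the minimum, so a higher minimum would drop them, while a lower one would not. The difference between these classes was not tested.

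In fibroblasts 6 of 18 other target genes were lower and 2 higher, where 14.6% of all genes tested were lower and 11.1% higher. The higher ones were Klf10 (27.6 to 55.6 CPM) and the basement membrane collagen gene Col4a1 (241 to 470.4 CPM). The smooth-muscle actin gene Acta2 was at 538 CPM in control and 173 CPM in ENZ fibroblasts, and Tagln at 464 and 231 CPM. The cell-cycle inhibitor gene Cdkn2b was at 17.6 and 8.18 CPM, from only 21 and 10 UMIs. Its ratio interval covered 1 (0.466, 0.196 to 1.03). Postn, Fn1 and Ccn2, genes of matrix and matricellular proteins, had ratios of 1.03, 0.966 and 0.766, and Tgfbr3 was at 263 and 553 CPM, a ratio of 2.1. Matrix genes thus stood above, near and below a ratio of 1 in the same 63 and 72 cells. The 6 mural cell markers summed to 46.8 and 54 CPM in these fibroblasts, and their part was not tested.

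In T cells the inhibitor of differentiation genes Id1 and Id3 were at 53 and 16.3 CPM and at 103 and 50.2 CPM, ratios of 0.307 and 0.487. Of the 10 other target genes tested in T cells, 3 were lower (Id1, Id3 and Ccn1) and 2 higher, Klf10 at 27.8 and 46.8 CPM and Bhlhe40 at 119.8 and 208.8 CPM. Over all genes tested in T cells 8.61% were lower and 9.7% higher. With median-of-ratios scaling Fn1 was lower as well. Itgb8, whose product activates latent TGF-beta, was at 52.6 and 93.8 CPM, and Itgav, its partner, at 490.2 and 799 CPM. The Smads 2, 3 and 4 had ratios of 1.08 to 1.43 in T cells, 1.17 to 1.20 in cancer cells and 1.11 to 1.27 in monocytes. They ran from 0.817 (Smad3) to 1.39 (Smad2) in macrophages and from 0.788 (Smad2) to 1.07 (Smad3) in fibroblasts.

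**Figure D4:**
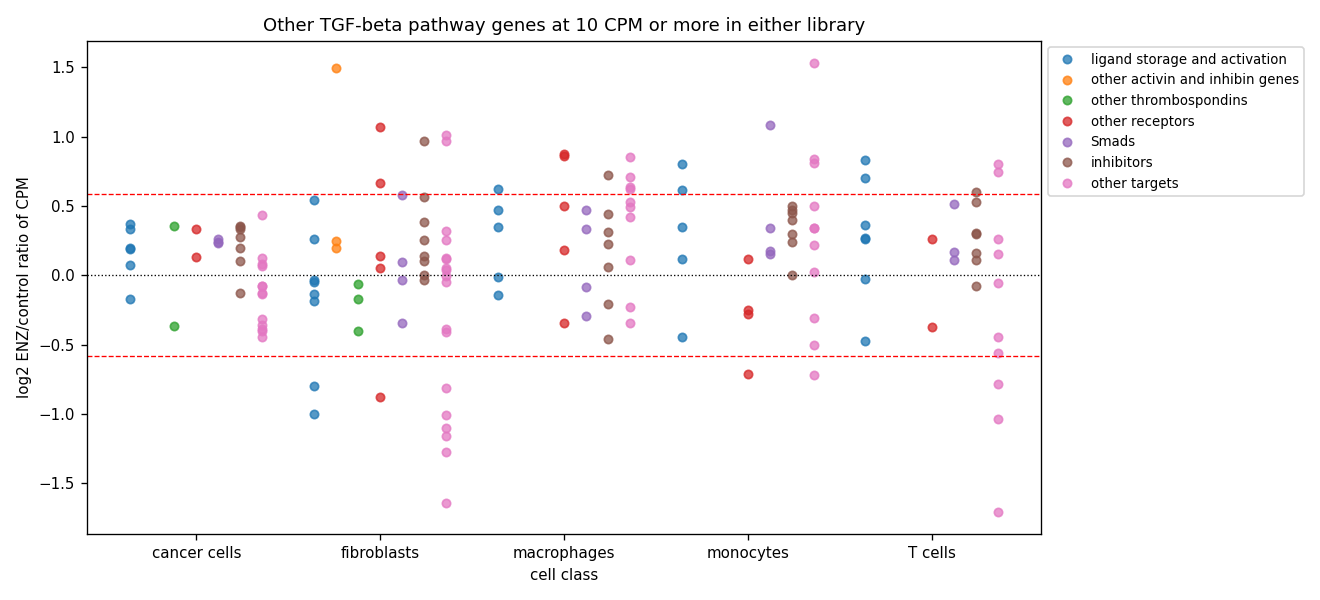
Log2 ENZ to control ratio of CPM of the other pathway genes that reached 10 CPM, 1 point per gene, by cell class and colored by gene list, with dashed lines at 1.5-fold. All 33 points of cancer cells lie within 1.5-fold, and fibroblasts have 9 points below it and 6 above it.

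RNA measures that differed between the libraries were recorded for each class. The 12 genes of the dissociation response summed to 6056 CPM in control and 4040 CPM in ENZ cancer cells, to 7474 and 6840 CPM in fibroblasts, to 14280 and 9474 CPM in macrophages, to 19106 and 16688 CPM in monocytes and to 9494 and 9011 CPM in T cells. The 6 rRNA-like genes, led by Gm42418, had sums 2.70, 2.70, 2.53, 2.22 and 2.07 times as high in the ENZ library in the same order of classes. The 5 platelet genes, led by Pf4, summed to 80.6 and 41.6 CPM in monocytes, to 30.1 and 9.0 CPM in fibroblasts, to 30.9 and 14.5 CPM in T cells, to 527 and 433 CPM in macrophages and to 73.5 and 65.9 CPM in cancer cells. The 6 neutrophil markers summed to 93.6 and 36.8 CPM in fibroblasts, G0s2 most abundant, with 6 (control) and 5 (ENZ) detected. They summed to 80.7 and 26.7 CPM in cancer cells and to 184 and 115 CPM in macrophages. In T cells the sums were 75.2 and 47.9 CPM, and in monocytes 202 and 196 CPM. Removing mitochondrial, ribosomal protein and rRNA-like genes from the totals shifted the members' log2 ratios by 0.02 at the largest, and the part of the dissociation response, of platelets and of neutrophils was not tested.

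The genes most like each member were sought over 10 profiles, the 5 classes in 2 libraries, among 5834 genes with at least 50 CPM in 1 of them, by Pearson's r of log2(CPM + 1). The profiles share libraries and classes, so the values are a description. Tgfb2 was most like Ccn2 (0.992), Ogn (0.992) and Col1a1 (0.992), and Tgfbi most like Syk (0.996), Gpr35 (0.992) and Csf2rb2 (0.988). Inhba was closest to App (0.986), Irak3 (0.982) and Metrnl (0.98), Thbs1 to Ifnar2 (0.984), Ifi207 (0.982) and BC028528 (0.977), and Tgfb1 to Chd7 (0.984), Foxn2 (0.981) and Trps1 (0.98). For Tgfbr2 they were Lrrc32 (0.969), Lbh (0.969) and Cmah (0.961), for Tgfbr1 Zmiz1 (0.965), Birc3 (0.961) and Tgoln1 (0.96), for Tgfb3 Palld (0.972) and Chd9 (0.967), and for Smad7 Aak1 (0.961), Ksr1 (0.954) and Fam102a (0.952). Among the members, Thbs1 and Inhba (0.94), Tgfb2 and Tgfb3 (0.91) and Tgfbi and Thbs1 (0.90) were the closest pairs, and Tgfb1 and Tgfb2 the most opposed (-0.91).

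Positions are given for 8 of the 9 genes, which lie apart on GRCm38, with Tgfb1 at chr7:25687002-25705077, Tgfb2 at chr1:186622792-186705989, Tgfb3 at chr12:86056745-86079041, Tgfbr1 at chr4:47353222-47414931, Tgfbr2 at chr9:116084293-116175360, Tgfbi at chr13:56609523-56639562, Thbs1 at chr2:118111876-118127133 and Inhba at chr13:16011851-16031621. Tgfb2, Tgfb3, Thbs1 and Inhba overlap genes on the opposite strand.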

How the data were processed

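Droplet scRNA-seq was measured in 1 control and 1 ENZ tumor. The deposited values are unnormalized counts, UMIs of each of 32285 genes in every barcode, as the authors' counting software wrote them. The file header names Cell Ranger 7.2.0, while the submitters' processing notes name Cell Ranger 2.1.1 and mm10. The labels name a 3′ v2 chemistry. The annotation release and the treatment of intronic reads are not given in the sources used here. GENCODE M21 holds 32235 of the identifiers and gave the positions.

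The libraries held 170830346 and 162030149 UMIs, of which 90.4% and 90.5% were in kept barcodes (at least 1000 UMIs, at most 20% mitochondrial). Cells were gated on marker genes, with a summed level of at least 3 UMIs per 10000 (20 for neutrophils and mast cells) and at least 2 markers detected. A cell belonged to a class when it passed 1 gate, or when macrophage and monocyte levels differed by 2-fold or more. Doublets were removed only as cells that passed several gates. UMIs were summed per class and library and scaled to CPM. Intervals are exact, at 95% (scipy 1.17.1, Python 3.11.15), and were tested on simulated data.

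The text names the 9 members, the pathway genes of fixed lists and, per member, the 3 genes with the highest correlation. A few genes of these lists are not reported here. The members and lists were chosen with earlier results of these data known, and the gate was settled after classes and members' levels had been seen. Alternatives were other UMI and mitochondrial limits, Leiden clusters (scanpy 1.11.5, leidenalg 0.10.2), a stricter gate, per-cell means, free RNA subtraction, other totals, median-of-ratios scaling, scrublet scores and other minimum levels.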

Additional observations from a re-analysis of the deposited data

Results flagged for a closer look

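Some members had ratios whose counting intervals lay above 1 in one cell class and below 1 in another. With 1 library per condition the difference between classes was not tested. Tgfb1 had ENZ to control ratios of 1.06 in cancer cells and 1.25 in T cells, against 0.891 in macrophages, and the cancer cell value went from 0.08 to 0.01 on the log2 scale with median-of-ratios scaling. Tgfbi had ratios of 1.27 in macrophages and 1.38 in monocytes, against 0.707 in cancer cells and 0.527 in T cells. The T cell value went from -0.92 to 0.28 on the log2 scale with Leiden classes. Smad7 had ratios of 1.44 in fibroblasts, 1.24 in monocytes and 1.13 in T cells, against 0.880 in macrophages. The fibroblast value went from 0.53 to -0.46 on the log2 scale with the Plac8 and Vcan gate. Thbs1 had ratios of 1.28 in macrophages and 1.32 in monocytes, against 0.626 in fibroblasts and 0.520 in T cells. The fibroblast value went from -0.68 to 0.76 on the log2 scale with the Plac8 and Vcan gate. For Smad7 and Thbs1 alike, that gate left few fibroblasts.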

How the results depend on the processing

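No paired analysis was possible because there was 1 mouse for vehicle and 1 for ENZ. The number of members past 1.5-fold in fibroblasts was 2, and 1 with Leiden classes (Thbs1 lost) and 1 after the highest scrublet scores were removed (Tgfb2 lost). It was 3 with per-cell means (Tgfb1 gained at 0.69 on the log2 scale) and 3 with the Plac8 and Vcan gate (Tgfbi 0.88, Tgfbr1 0.65 and Thbs1 0.76), and with a stricter gate Tgfbr1 (0.74) took the place of Thbs1 among 2. In macrophages it was 1, and 2 with Leiden classes (Thbs1 gained at 0.82 on the log2 scale), 0 with at least 50 CPM and 2 with no minimum level. The counts in the other 3 classes stayed within 1.5 times of the reported ones, but single calls changed. On the log2 scale Smad7 in monocytes was at 0.60 with Leiden classes and Tgfb3 in T cells at 1.05 with per-cell means, both past 1.5-fold. Of the other pathway genes in macrophages 8 were higher and 0 lower, and 3 and 1 with median-of-ratios scaling. The scaled count was added after seeing the data and has no scaled share of all genes beside it. Thbs1 in fibroblasts went from -0.68 to 0.76 (log2) with a monocyte gate that held Plac8 and Vcan, chosen after seeing the data, and Tgfbi in T cells from -0.92 to 0.28 with Leiden classes. The cause was not tested, and the first left 17 and 13 fibroblasts. In the fibroblasts of the main gate the 6 monocyte markers, Plac8 most abundant, summed to 883 CPM (control) and 1176 CPM (ENZ). Of 38 log2 ratios, 7 changed sign with Leiden classes, 3 with a stricter gate, 3 with per-cell means, 3 with median-of-ratios scaling, 1 with scrublet and 4 with the Plac8 and Vcan gate, and 0 with other UMI or mitochondrial limits, free RNA subtraction or other totals. Over these settings Inhba in monocytes ranged from 1.09 to 1.39, Tgfbr1 in monocytes from 0.77 to 0.99 and in T cells from 0.60 to 0.70, and Smad7 in fibroblasts from -0.46 to 0.56. The scrublet threshold marked 0 control cells, so the highest scores were removed in both libraries (707 and 600). Few UMIs limit the genes near 10 CPM, and few cells (63 control and 72 ENZ) limit the fibroblasts.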

Other observations

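Outside the 5 classes, neutrophils (1169 control and 434 ENZ cells) had Thbs1 at 858 CPM (control) and 474 CPM (ENZ), a ratio of 0.553 (0.499 to 0.612), and Inhba at 118 and 70.8 CPM, a ratio of 0.598 (0.453 to 0.779). Smad7 was at 122 and 200 CPM in neutrophils, a ratio of 1.63 (1.36 to 1.96), and Tgfbi at 186 and 230 CPM (1.24, 1.05 to 1.45). Thbs1 and Inhba thus had ratios below 1 in neutrophils and above 1 in monocytes, and the difference was not tested. In monocytes the Thbs1 ratio (1.32) lay within 1.5-fold, and that of Inhba (2.58) did not. In NK cells Tgfb1 was at 255 and 371 CPM, a ratio of 1.45 (1.20 to 1.76), and Tgfbr2 at 180 and 246 CPM (1.37, 1.08 to 1.73). Tgfb2 was at 53.6 and 12 CPM in mural cells (41 and 8 UMIs), a ratio of 0.225 (0.0910 to 0.486). In endothelial cells it had 6 UMIs in 25 control cells and 7 UMIs in 10 ENZ cells, and the interval of the ratio covered 1 (2.84, 0.818 to 10.2).

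Among T cells with a UMI of Foxp3 and none of Cd8a or Cd8b1, Tgfb1 was at 170 CPM (122 to 230) in 41 control cells. In 82 ENZ cells it was at 258 CPM (213 to 310). Among those with Cd8a or Cd8b1 and no Cd4 or Foxp3, Tgfb1 was at 144 CPM (115 to 179) in 77 control cells. In 124 ENZ cells it was at 177 CPM (146 to 213), and Smad7 was at 313 (268 to 362) and 426 CPM (377 to 479). Among those with Cd4 and no Foxp3, Cd8a or Cd8b1, Smad7 went the other way, from 407 CPM (329 to 497) in 53 control cells to 289 CPM (255 to 326) in 171 ENZ cells. Tgfb1 was at 171 (122 to 233) and 226 CPM (196 to 259) in them. Tgfbr1 was at 76.8 (46.3 to 120) and 115 CPM (85.9 to 152) in the Foxp3 cells. In the Cd8 cells it was at 61.5 (42.8 to 85.5) and 88.6 CPM (67.1 to 115). None of these UMIs were found in 343 control and 346 ENZ T cells, and in them Tgfbr1 was at 76.2 (62.8 to 91.6) and 123 CPM (106 to 143).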
